A study of Homo sapiens with 12 samples.

Results

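Induction of miR-10a was examined in 6 samples of the established hESC (human embryonic stem cell) line H9, out of 12 samples in the series. The 6 were chosen by their labels. In 3 of them doxycycline had been added to the medium on days 11 to 14 of neural differentiation, and 3 controls, cells with the same vector, were grown without it. All cells of both groups had been transduced as hESCs, at a multiplicity of infection of 50, with a lentiviral vector that expresses miR-10a and a GFP reporter when doxycycline is present. All were patterned towards ventral midbrain (MB), with sonic hedgehog at 200 ng/ml, and were harvested on day 14. The other 6 samples carried a miR-10b vector, with 3 doxycycline samples and 3 controls of their own, and served to estimate the spread between samples and to show where miR-10a differed. A group with doxycycline but without a miRNA vector was not analysed here, so that the effects of miR-10a, of GFP and of doxycycline itself cannot be told apart. The cultures were analysed whole, and fewer cells of a type and less RNA per cell cannot be told apart in such RNA. Whether replicates came from separate differentiations is not stated in the labels, and the p-values measure the spread between these samples only.

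MiRNAs are short RNAs that guide Argonaute proteins to mRNAs, mostly to sites in the 3′ untranslated region (3′UTR) that pair with the seed of the miRNA, its bases from the second to the eighth. Pairing usually lowers the stability and the translation of the mRNA, and the effect on any single mRNA tends to be modest. The miR-10 family is encoded within the HOX clusters, whose genes pattern the hindbrain and spinal cord and are silent in forebrain and MB. The ventral MB floor plate, marked by LMX1A, FOXA2 and CORIN, gives rise to dopaminergic neurons, and WNT1 from the MB-hindbrain border is one of the signals that specify it.

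The mature miRNA made from the vector is given first, with its seed in capitals, since every seed match counted in the 3′UTRs follows from it. The sequence is that of RefSeq (from a table on GRCh38.p14), and the same letters are found on hg19, the build of the files, on the minus strand at chr17:46657266-46657288. That position lies between the exons of HOXB3 transcripts.
hsa-miR-10a-5p: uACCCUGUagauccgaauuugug

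An mRNA with an 8mer match pairs with all 7 bases of the seed and carries an A opposite the first base of the miRNA (letters ACAGGGTA). A 7mer-m8 match lacks this A (ACAGGGT), a 7mer-A1 match lacks the pairing to the eighth base (CAGGGTA) and a 6mer lacks both (CAGGGT). Each gene was classed by its best match on the mRNA strand of the longest 3′UTR (GENCODE 44 on GRCh37, the same assembly as hg19). Of 9829 tested genes whose 3′UTR is annotated, 251 had an 8mer (2.55%). The sites below are those of the 12 genes with an 8mer that were lower with miR-10a, given 5′ to 3′ on the strand of the mRNA with the match in capitals and the coordinates of the capitals on GRCh37. All lie in 3′UTR exons. SOBP holds a pair of them. The last 2 lines give the 7mer-m8 sites of LIN28A and ANKRD1, which were lower as well and had no 8mer.
PRTG (chr15:55910121-55910128, minus strand): ataggcagattgACAGGGTAtagcg
SOBP (chr6:107979423-107979430, plus strand): gaacgttcactcACAGGGTAcgctc
SOBP (chr6:107980549-107980556, plus strand): gggtggaggataACAGGGTAgattc
FCF1 (chr14:75202019-75202026, plus strand): acagctagagaaACAGGGTAtttac
SLC7A11 (chr4:139087516-139087523, minus strand): gtaccttgtgtgACAGGGTAttatt
DENND6A (chr3:57613810-57613817, minus strand): tgaatgctagttACAGGGTAgaaag
ELOVL2 (chr6:10983601-10983608, minus strand): tatattctaaatACAGGGTAtgttc
KIAA1644 (chr22:44644952-44644959, minus strand): ttattgctaagcACAGGGTAcggcc
ITGB8 (chr7:20452449-20452456, plus strand): tggtaagggaacACAGGGTActctt
CCDC177 (chr14:70036564-70036571, minus strand): aaaaaaatggaaACAGGGTAgagaa
SMIM10L1 (chr12:11325095-11325102, plus strand): tttttattacttACAGGGTAgccat
MTMR6 (chr13:25821536-25821543, minus strand): cttaagtgacctACAGGGTAtatgt
WWC2 (chr4:184239280-184239287, plus strand): gaatttattcgcACAGGGTAaaaag
LIN28A (chr1:26754169-26754175, plus strand): ctaccatgtgccACAGGGTgtgtg
ANKRD1 (chr10:92672476-92672482, minus strand): ttttgagaaagcACAGGGTtatag

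For each sample the files held unnormalized read counts per RefSeq transcript. Totals were between 10545487 and 12078812 counts in the 3 doxycycline samples (median 11042452) and between 12443157 and 14165426 in the 3 controls (median 12479768), so that every control was deeper than every doxycycline sample. Levels are in CPM, counts per total count of a sample scaled to 1e6, always in the order of replicates 1 to 3, and a floor of 3 counts lay between 0.212 and 0.284 CPM over the 12 samples. Genes with several transcripts were measured poorly, because reads shared between transcripts appear to have been left out by the counting. Replicates of the miR-10a groups differed more than counting error (chi-square per degree of freedom 1.224 to 1.887). Replicate 2 of the miR-10b doxycycline group stood apart from its replicates (3.174 and 4.107), which bears on miR-10a through the shared estimate of the spread. The cells had the markers of neural progenitors, with between 45781 and 65477 counts of NES and between 10922 and 14769 of SOX2 per miR-10a sample. EN1, a transcription factor of the MB and anterior hindbrain, was at 87.2 to 101 CPM in both groups. LMX1A, FOXA2, OTX2 and CORIN, with 2, 2, 7 and 3 transcripts, were at or below 8.05 CPM and cannot be judged from these counts. The same holds for NANOG and POU5F1, defining genes of pluripotent cells, with 2 and 5 transcripts and 0 to 2 counts per sample. Other genes of the pluripotency list, each with 1 transcript, were well measured, with group means of 1394.7 and 1539.5 CPM for LIN28A, 303.4 and 312.5 for SALL4 and 146.5 and 145.6 for DPPA4 (doxycycline first). The 20 genes of that list summed to 2333.6 to 2377.3 CPM with doxycycline and to 2459.1 to 2556.5 without it. Of the neural crest list, all genes named here having 1 transcript, FOXD3 and TFAP2B had 0 to 2 counts and SOX10 had 7 to 15, whereas NGFR, TWIST1 and BMP7 had means of 247.9, 50.3 and 488.8 CPM with doxycycline and of 232.4, 49.4 and 462.3 without it. The 19 genes summed to 778.4 to 823.9 CPM against 731.6 to 796.4, and edgeR called 0 of the 7 tested (1 at an unadjusted p under 0.05, 0 with DESeq2).

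The miR-10a precursor was induced in every doxycycline sample. MIR10A (NR_029608) was at 731.2, 728.6 and 711.4 CPM with doxycycline, against 1.37, 0.988 and 0.641 in the controls, which rested on 17, 14 and 8 counts. The groups were far apart and the 3 doxycycline samples lay close together. The log2 fold change was 9.49, with an adjusted p of 9.1e-43 by the test of edgeR. Standard errors given below were calculated back from that test, as the absolute log2 fold change over the square root of its F statistic. They are rough where a large change rests on few counts, as in NPPC, and none is given for MIR10A. Exact permutation of the 6 samples gave p = 0.1, the smallest that 3 against 3 allow. HOXB3 and HOXB4, the neighbours of MIR10A in the HOXB cluster, had 0 to 1 and 0 to 3 counts per sample and were too low to be tested. The precursor of miR-10b, MIR10B, had 2 to 13 counts in the same 6 samples. Reads of the vector and of the chromosomal locus cannot be told apart on the miR-10a precursor.

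Which other genes changed was tested for 11451 genes with a mean above 10 counts over all 12 samples, by the quasi-likelihood test of edgeR, with p-values adjusted after Benjamini and Hochberg over all of them. With miR-10a, 139 genes passed an adjusted p of 0.05 (1.21%), of which 54 were higher (0.472%) and 85 lower (0.742%). At an unadjusted p under 0.05 there were 1278 of the 11451, with 698 higher and 580 lower. In 138 of the 139 every doxycycline sample lay beyond every control, which was also the case for 18.2% of all tested genes. Several transcripts were listed for 13 of the 139 (0.402% of such tested genes, beside 1.53% of those with 1), and these were measured poorly. Among them were GALNT16, ENO1, NOTCH2, PHC2 and LOC100506990 with 2 transcripts each, CELF2 with 4 and SPATA13 with 7. DESeq2 called 129 genes and split them differently, with 36 higher and 93 lower. The count depends on the spread taken from the miR-10b samples: without replicate 2 of the miR-10b doxycycline group, left out after the data were seen, 268 genes passed (126 higher, 142 lower), and with the 6 miR-10a samples alone 272 did, all 139 among them. Leaving out 1 of the 6 miR-10a libraries at a time gave between 75 calls (without doxycycline replicate 1) and 104 (without control replicate 2), with 84 without control 1 and 81 without control 3. In all, 58 genes passed in each of these 6 fits, and these are called stable in what follows.

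The changes were small and the lower genes were the more abundant ones. Leaving out MIR10A, the 53 higher genes had a median log2 fold change of 0.23 and a median level of 68.7 CPM, and 3 of them changed by more than 1 on the log2 scale. The 85 lower genes had a median of -0.21 and a median level of 166 CPM, none fell by more than 1, and 6 fell by more than 0.5. The median level of all tested genes was 17.9 CPM. Per transcript length, the median level was 33.6 RPKM (CPM per kilobase) for the lower genes, 17.0 for the higher genes and 6.88 for all genes tested. Of the 2863 tested genes with the highest CPM, 89 passed (26 higher, 63 lower), with a median absolute log2 fold change of 0.18. Of the 2863 with the lowest CPM, 4 passed, all higher, with a median of 0.97 and none under 0.89. A change as small as most of those at high level was thus not detectable in genes of low level. Over all tested genes the median log2 fold change was 0.01.

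**Figure D1:**
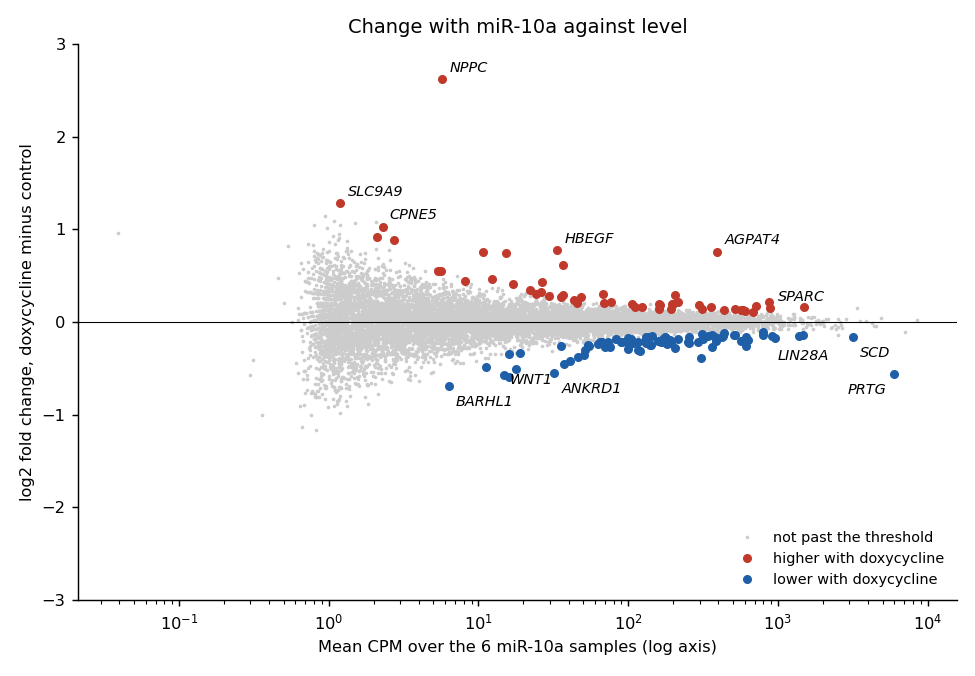
Log2 fold change with miR-10a (doxycycline minus control) against the mean CPM over the 6 miR-10a samples, for all tested genes except MIR10A; red, higher past the threshold; blue, lower past the threshold; grey, not past it. Called genes of low level have large changes, with NPPC highest at 2.62, whereas most called genes lie above 17.9 CPM with changes under 0.5.

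A group of 6 higher genes stood out as stable with a change above 0.5. NPPC (NM_024409), which encodes the precursor of C-type natriuretic peptide, a ligand that raises cyclic GMP, was at 10.1, 9.52 and 9.96 CPM with doxycycline and at 1.61, 1.27 and 1.92 without it. Its level was low in both groups, with no overlap between them, and rose by 2.62 on the log2 scale (standard error 0.164, adjusted p = 5e-14). AGPAT4, an acyltransferase of phospholipid synthesis, was at 491.2, 506.4 and 493.1 CPM against 292.5, 298.5 and 288.2. No other mRNA above 100 CPM rose as much. It changed by 0.76 on the log2 scale (standard error 0.032, adjusted p = 2.6e-19), and by 0.75 to 0.78 whichever miR-10a library was left out. AGPAT4-IT1, named as an intronic transcript of AGPAT4, rose alongside at a lower level (0.74), and the strand used in counting is not given in the sources used here, so that its reads and unspliced AGPAT4 cannot be told apart.

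HBEGF, a ligand of the EGF receptor, was at 44.7, 41.6 and 41.1 CPM against 24.7, 24.8 and 24.5. The 3 controls were almost equal and all lay well below the doxycycline samples (log2 fold change 0.78, standard error 0.071, adjusted p = 1.5e-09). TMEM132D, a single-pass membrane protein of the nervous system, went from 8.12, 9.04 and 6.65 CPM to 14.4, 14.0 and 11.9 (0.76, adjusted p = 9.8e-05). GALNT16, an enzyme that starts O-linked glycosylation, rose by a log2 fold change of 0.62 (adjusted p = 1.9e-07). Its family member GALNT1, in contrast, fell from 390.6, 389.5 and 408.0 CPM to 324.1, 332.3 and 326.3 (log2 fold change -0.27, standard error 0.035, adjusted p = 5.3e-06). GALNT16 and GALNT1 both have a 7mer-m8 as best match.

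The remaining large rises were of low level and less certain. SLC9A9, a sodium-proton exchanger of endosomes, had 1.45, 1.9 and 1.71 CPM against 0.884, 0.494 and 0.721, and CPNE5, a calcium-dependent lipid-binding protein, had 3.26, 3.31 and 2.66 against 1.29, 1.69 and 1.52. Their log2 fold changes were 1.28 (standard error 0.328) and 1.03 (standard error 0.225). SLC9A9, SPATA13 (0.92), NKX2-1-AS1 (0.55) and CHST1 (0.44) lost the call whichever of the 6 miR-10a libraries was left out. CPNE5 lost it without doxycycline 1, doxycycline 2 or control 1 (0.99, 0.97 and 0.93). SCX (0.89), a transcription factor of tendon, passed among these fits only without doxycycline 2, PCP4 (0.55) only without control 1, and PHC2 (0.46), a Polycomb subunit, only without control 2. With TMM factors, SPATA13, PCP4 and CHST1 also missed the threshold (adjusted p of 0.053, 0.051 and 0.051). DESeq2 gave no adjusted p for 8 of the called genes, all of low level, NPPC, SLC9A9, CPNE5, SPATA13, SCX, PCP4, NKX2-1-AS1 and BARHL1, and its fold changes for them were near those of edgeR (2.62 for NPPC).

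**Figure D2:**
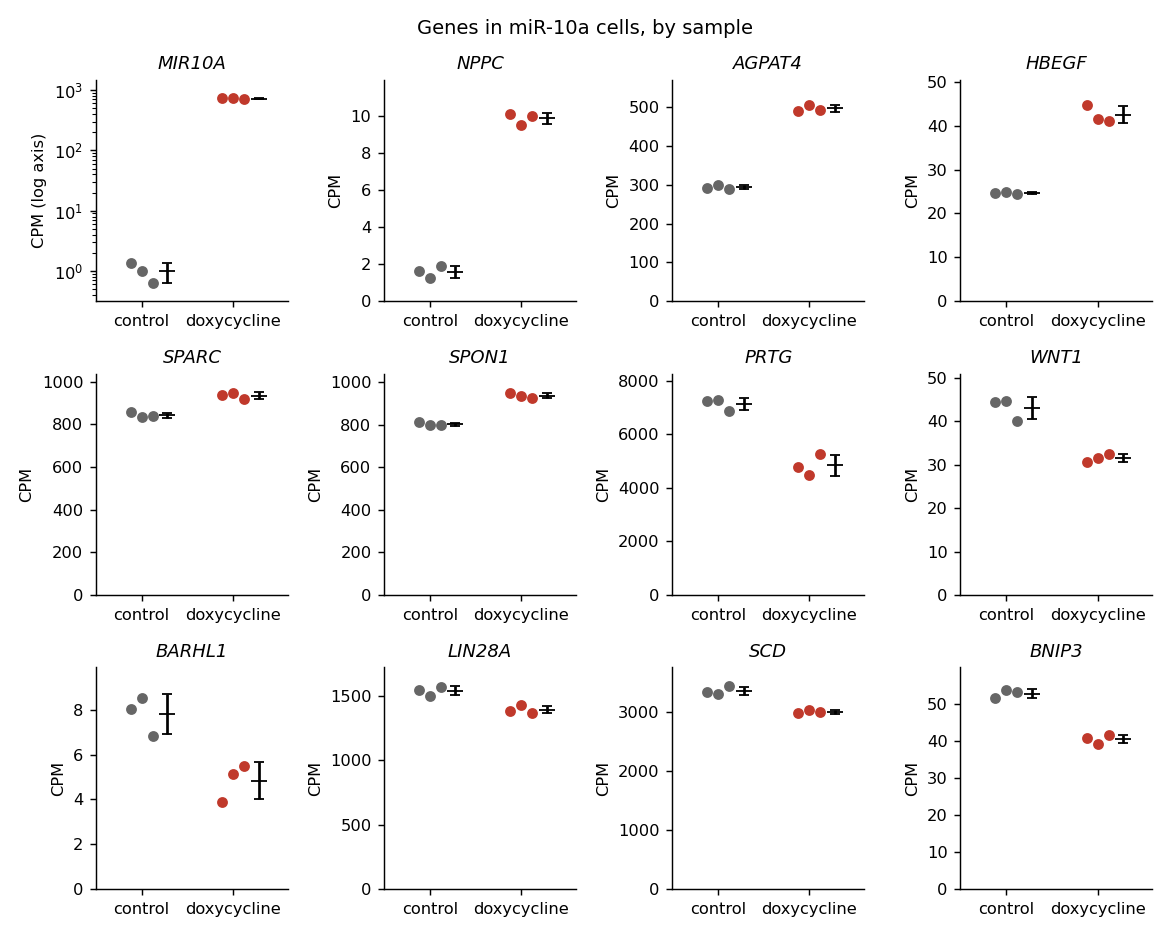
CPM of 12 genes in the 3 controls (grey) and the 3 doxycycline samples (red) with miR-10a; bars give mean and SD (n = 3), and the axis is logarithmic for MIR10A only. In each gene the doxycycline samples lie entirely above the controls (MIR10A, NPPC, AGPAT4, HBEGF, SPARC, SPON1) or entirely below them (the other 6).

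Among the lower genes, PRTG had the highest CPM and one of the largest falls. PRTG (protogenin, an immunoglobulin superfamily receptor of the early neural tube) was at 4784, 4490 and 5266 CPM with doxycycline and at 7246, 7282 and 6868 without it. Every doxycycline sample was well below every control, and the log2 fold change was -0.56, with a standard error of 0.038 and an adjusted p of 6.3e-13, a fall by 32.0%. Per transcript length it went from 596 to 405 RPKM. Its 3′UTR holds the first of the 8mer sites listed above, and the fall stayed between -0.62 and -0.51 without any 1 miR-10a library.

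Most other large falls were in genes under 100 CPM. ANKRD1, a muscle and stress-response ankyrin protein that is also a common readout of YAP, was at 27.8, 26.7 and 23.4 CPM against 38, 42.4 and 33.5 (-0.55, adjusted p = 5.5e-05). GCLM, the modifier subunit of the enzyme that limits glutathione synthesis, was at 13.2, 14.6 and 16.1 against 21.1, 19.8 and 21.6 (-0.51, adjusted p = 0.00075). CRADD, an adaptor of caspase-2 activation, fell by 0.57 on the log2 scale. These 3 were stable, as were LINC01330 (-0.59), ADAMTS20 (-0.42), a secreted metalloprotease, LGALSL (-0.36) and DLK1 (-0.39), a membrane ligand related to Notch ligands that is imprinted. DLK1 was at 259.7, 273.0 and 259.6 CPM against 334.9, 380.7 and 321.0. CELF2 (-0.49), a regulator of splicing, lost the call without control 3 (-0.43, adjusted p = 0.053). PRRT3 (-0.35) passed only without doxycycline 1 and not with DESeq2 (adjusted p = 0.08), and LOC100506990 (-0.33) in none of the 6 fits and not with DESeq2 (adjusted p = 0.058).

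The share of lower genes was highest among those with an 8mer for the miR-10a seed. Of the 251 tested genes with an 8mer, 12 were lower (4.78%) and 0 higher by edgeR's test, beside 0.742% and 0.472% of all tested genes. At an unadjusted p under 0.05 by edgeR there were 32 lower and 6 higher, beside 580 lower and 698 higher of all 11451 tested genes. DESeq2 called 0 of the 251 higher. Genes with a 7mer-m8 as best match were lower in 1.79% and higher in 0.373% (24 and 5 of 1342), and those with a 7mer-A1 in 1.67% and 0.626% (8 and 3 of 479). With a 6mer (11 lower and 14 higher of 1914 genes) or no match (24 and 27 of 5843) the shares in both directions were under 1%. The lower genes were of higher level than the higher genes, as given above, and the part of level in these shares was not tested.

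**Figure D3:**
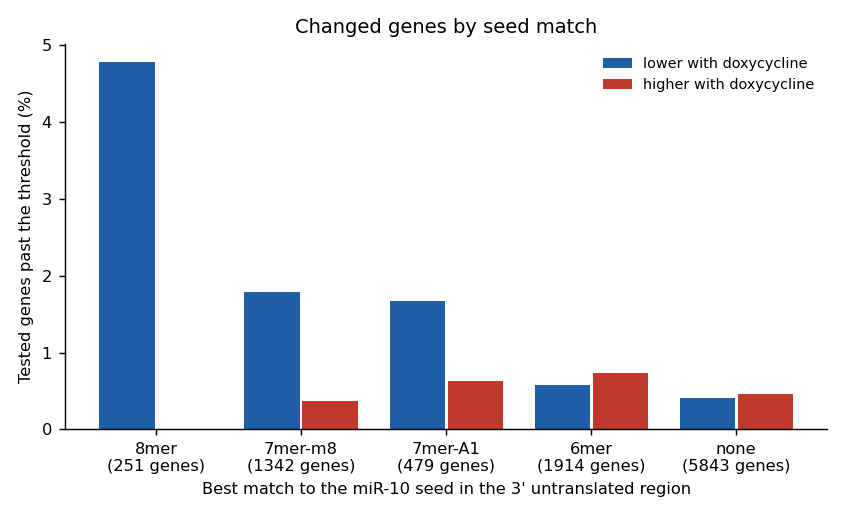
Percentage of tested genes that were lower (blue) or higher (red) with miR-10a, by the best match to the miR-10 seed in the longest 3′UTR. The share of lower genes is 4.78% with an 8mer, 1.79% with a 7mer-m8 and 0.411% with no match, while the share of higher genes stays under 1% in every class.

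The 12 genes with an 8mer that fell have diverse roles. After PRTG the largest fall was that of SOBP, a zinc-finger protein of inner ear and brain development with 2 sites, from 127.1, 133.8 and 135.4 CPM to 105.7, 107.5 and 106.8 (-0.31, standard error 0.047, adjusted p = 7.6e-05). FCF1, a factor of ribosomal RNA processing, had 128.4, 128.4 and 128.3 CPM in the controls and 104.1, 107.0 and 102.1 with doxycycline (-0.30, standard error 0.04, adjusted p = 1e-05). In both genes every control lay above every doxycycline sample, and the controls of FCF1 lay close together. SLC7A11, the cystine transporter that feeds glutathione synthesis, was at 125.1, 123.1 and 144.5 against 150.0, 156.4 and 159.8 (-0.25, adjusted p = 0.0017). ELOVL2 (-0.23), an elongase of very long polyunsaturated fatty acids, DENND6A (-0.23), a factor of endosomal recycling, and ITGB8 (-0.22), an integrin subunit that activates TGF-beta, were stable too, as were KIAA1644 (-0.22) and SMIM10L1 (-0.22). CCDC177 (-0.22) passed only without doxycycline 2 and without control 3. MTMR6 (-0.17), a phosphoinositide phosphatase, passed only without doxycycline 2, and WWC2 (-0.15), a regulator of the Hippo pathway, only without control 2, while WWC2 also missed it with counts thinned to equal totals (adjusted p = 0.062).

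Regional identity was examined next, because the cells were patterned to a defined place in the neural tube. Of the 16 tested genes of the MB floor plate list, SPON1 rose and BARHL1 fell (12.5% called, beside 1.21% of all tested genes). DESeq2 called 1 of the 16 and gave no adjusted p for BARHL1. BARHL1, on that list though a homeobox gene of the diencephalon and cerebellum, was at 3.89, 5.13 and 5.5 CPM against 8.04, 8.54 and 6.81. It changed by -0.69 (standard error 0.143, adjusted p = 0.0045), and lost the call without doxycycline 1 (-0.56) and without control 2 (-0.62). Of the 14 tested genes of the MB-hindbrain organizer, WNT1 was lower (7.14%, beside 0.742% of all tested genes). WNT1 was at 30.5, 31.5 and 32.5 CPM against 44.5, 44.6 and 40.0, and was stable (-0.45, adjusted p = 3.2e-05). Of 16 forebrain factors 1 was lower (6.25%, beside the same 0.742%). This was IRX3, a homeobox gene of the caudal forebrain and MB (-0.27, adjusted p = 0.012), with the call kept only without doxycycline 2 and without control 1. MSX1 (-0.20, adjusted p = 0.32), NKX2-2 (-0.16, adjusted p = 0.19) and GBX2 (-0.15, adjusted p = 0.69) did not pass. In MSX1 and NKX2-2 every doxycycline sample lay below every control, as in 7.75% of all tested genes, whereas the groups overlapped in GBX2. LMX1A (0.39, adjusted p = 0.46) and FOXA2 (0.02, adjusted p = 0.98) did not pass either. With 2 transcripts each and at most 6.99 CPM, LMX1A and FOXA2 cannot be judged from these counts. Only 2 of 32 HOX genes had enough counts to be tested and neither was called, and 0 of 16 factors of the ventral lateral neural tube were (4 at an unadjusted p under 0.05, 0 with DESeq2).

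Among progenitor and stem cell genes, LIN28A was lower. This RNA-binding protein, which blocks the processing of let-7, was at 1385, 1428 and 1371 CPM against 1543, 1503 and 1572, without overlap (-0.14, standard error 0.028, adjusted p = 0.0032), and it missed the threshold without control 3 (-0.13, adjusted p = 0.052). It was the single gene that edgeR called of 6 tested pluripotency genes and of 15 genes of the LIN28 and let-7 list. That is 16.7% and 6.67%, beside 1.21% of all tested genes. DESeq2 called 1 and 2 of these lists, beside 129 genes in all. Of 21 neural progenitor genes edgeR called 0 and DESeq2 called 0. Of their fold changes 17 were negative, with a median of -0.045, beside 0.01 over all genes tested. At an unadjusted p under 0.05 by edgeR there were 7 of the 21, beside 1278 of all 11451 tested genes. Of 25 neuron genes 1 was lower (4.0%, beside 0.742% of all tested genes). This was SYT4, a synaptotagmin of secretory vesicles (-0.17, adjusted p = 0.0038), which did not pass without control 3 (-0.15, adjusted p = 0.067). The summed level of the 24 neural progenitor genes was between 17794.1 and 17985.7 CPM with doxycycline and between 18172.6 and 18417.7 without it. That of the 35 neuron genes was 4028.4 to 4043.2 against 4111.1 to 4177.4. That of the 20 MB floor plate genes was higher with doxycycline, at 4043.9 to 4116.0 against 3847.4 to 3920.2. Much of this difference was SPON1, with means of 936.1 CPM with doxycycline and 801.7 without it. The markers LMX1A, FOXA2 and CORIN were at or below 8.05 CPM and cannot be judged. The part of such shifts in the changes of single genes was not tested. ID4, an inhibitor of differentiation downstream of BMP, fell by 0.15 on the log2 scale, but not without doxycycline 2, control 1 or control 3 (adjusted p of 0.061, 0.074 and 0.052). RMST, a long noncoding RNA of the MB, and LIX1 were also lower, whereas INSM1, a zinc-finger factor of newly formed neurons, was higher. These 3 were picked after their values were seen, and RMST lost the call without doxycycline 2 (-0.2) and without control 3 (-0.23).

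Of 35 tested WNT pathway genes 3 fell (8.57%, beside 0.742% of all tested genes), and none rose (beside 0.472%). Besides WNT1 they were WNT8B, a ligand of the embryonic brain, and APCDD1, a membrane-bound inhibitor of WNT that is itself induced by WNT signalling. WNT8B was at 188.2, 178.4 and 167.3 CPM against 203.6, 200.6 and 204.2 (-0.19, adjusted p = 0.0055), and APCDD1 at 491.0, 504.0 and 483.2 against 542.2, 543.6 and 548.2 (-0.14, adjusted p = 0.0063). Both groups were separate in each gene, but WNT8B lost the call without doxycycline 3 (-0.15) and APCDD1 without doxycycline 1 (-0.14), doxycycline 3 (-0.13) or control 3 (-0.14). The median log2 fold change of the 35 genes was -0.008, beside 0.01 for all genes tested. Of 18 Notch genes 1 was higher (5.56%, beside 0.472% of all tested genes). This was the receptor NOTCH2 (0.14, adjusted p = 0.0099), which kept the call only without doxycycline 2 and without control 2. By edgeR none of 14 hedgehog genes (0 at an unadjusted p under 0.05), 15 FGF-ERK feedback genes (3) or 17 Eph and ephrin genes (2) was called, and DESeq2 called none of them.

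Of 26 tested genes of hypoxia and glycolysis, 5 were lower (19.2%, beside 0.742% of all tested genes) and none higher (beside 0.472%). Calls were more frequent at high level, with 63 lower and 26 higher of the 2863 tested genes above 82.6 CPM. The part of level in the share of this list was not tested. BNIP3, a mitochondrial mitophagy receptor induced by hypoxia, was at 40.7, 39.2 and 41.4 CPM against 51.4, 53.7 and 53 (-0.38, standard error 0.058, adjusted p = 7.1e-05). HK2, the hexokinase that starts glycolysis, was at 133.0, 126.9 and 125.6 against 154.2, 154.9 and 147.9 (-0.25, adjusted p = 0.00076). Both were stable and without overlap between the groups. ENO1 (-0.17), the enolase, SLC2A1 (-0.14), the glucose transporter GLUT1, and PGK1 (-0.12), a kinase of glycolysis, also passed. Of these, PGK1 lost the call whichever library was left out, ENO1 kept it only without doxycycline 2 and without control 2, and SLC2A1 lost it without doxycycline 3 and without control 2 (-0.12 in both). The list as a whole had 18 negative and 8 positive fold changes with a median of -0.099, against 0.01 over all genes tested. In 11 of the 26 every doxycycline sample was below every control, in 0 above, beside 7.75% and 10.5% of all tested genes. TXNIP and ARRDC4, arrestin-like proteins that respond to glucose and restrain its uptake, were lower too, and ARRDC4 kept the call only without doxycycline 2. They were noticed after their values were seen.

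Other metabolic and stress lists held few called genes. SCD, the desaturase that makes monounsaturated fatty acids, was the one gene called of 21 cholesterol and lipid genes (4.76%, beside 1.21% of all tested genes). SCD was at 2982, 3032 and 2994 CPM against 3339, 3307 and 3436 (-0.16, adjusted p = 0.00076), and was stable. In this list 17 of 21 fold changes were negative, with a median of -0.073, against 0.01 over all genes tested. In 9 of the 21 every doxycycline sample was below every control, in 0 above, beside 7.75% and 10.5% of all tested genes. Of 22 tested ATF4 target genes, SLC7A11 and SLC7A1, the transporter of cationic amino acids, were lower (9.09%, beside 0.742% of all tested genes). SLC7A1 (-0.13) lost the call whichever miR-10a library was left out and with thinned counts (adjusted p = 0.067). E2F7, a repressor of cell cycle genes, was the one of 16 published miR-10 targets that passed (6.25%, beside 1.21% of all tested genes). It was lower (-0.18, adjusted p = 0.0019) and stable. Of 33 cell cycle genes (2 at an unadjusted p under 0.05), 62 of the cytosolic ribosome (0), 57 of the mitochondrial ribosome (2) and 56 of the respiratory chain (3), edgeR and DESeq2 called none. The same held for 12 p53 target genes (4), 17 of the unfolded protein response (2), 14 of the interferon response (3) and 17 immediate early genes (2). EdgeR also called none of 7 neural crest genes (1), 6 endoderm and epithelial genes (0), 17 genes of the miRNA machinery (2), 9 of the IGF system (5), 4 metallothionein and zinc genes (0), 21 channel genes (2) and 7 retinoic acid genes (2), and DESeq2 called 1 of the last list only. Beside these numbers in parentheses, 1278 of all 11451 tested genes had an unadjusted p under 0.05 by edgeR.

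Extracellular matrix genes were higher where they passed. Of 31 collagen and matrix genes tested, 3 rose (9.68%, beside 0.472% of all tested genes) and none fell (beside 0.742%). SPON1 (F-spondin), a secreted protein of the floor plate, was at 947.1, 935.9 and 925.3 CPM against 809.8, 796.9 and 798.3 (0.22, standard error 0.029, adjusted p = 6.3e-06). SPARC, a collagen-binding glycoprotein, was at 938.2, 947.9 and 918.2 against 857.8, 836.5 and 837.8 (0.15, standard error 0.028, adjusted p = 0.0018). In both, the samples of a group lay within a few percent of each other, and both were stable. LAMB2, a laminin chain, was at 214.0, 199.5 and 209.4 against 180.5, 183.9 and 182.1 (0.19, adjusted p = 0.0055), and not past the threshold without doxycycline 1 (0.17) or control 1 (0.18). The list had 25 positive fold changes of 31 with a median of 0.071, against 0.01 over all genes. In 14 of them every doxycycline sample was above every control, in 0 below, beside 10.5% and 7.75% of all tested genes. The mesenchymal genes, which share members with the matrix list, were at 834.5 to 863.6 CPM in sum with doxycycline and at 785.1 to 813.3 without it, while 0 of 18 tested were called by edgeR (5 at an unadjusted p under 0.05, 0 with DESeq2). Of the fibroblast genes among them, COL1A1 was at 43.6 to 51.3 CPM with doxycycline and 44 to 46.5 without it, COL3A1 at 39.0 to 39.7 against 33.1 to 37.2 and LUM at 10.1 to 13.4 against 10.7 to 12.2, while DCN, with 6 transcripts and 0 to 1 counts, cannot be judged. Their part in the matrix result was not tested.

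Genes of axon guidance and cell adhesion changed one by one. SLIT1, a repellent ligand, was at 1326, 1276 and 1309 CPM against 1444, 1488 and 1421 (-0.15, adjusted p = 0.0012) and was stable. UNC5C, a netrin receptor, rose from 15.1, 13.6 and 15.1 CPM to 19.0, 18.5 and 20.8 (0.41, adjusted p = 0.0071), but not without doxycycline 3 (0.37) or control 2 (0.36). These were 2 of 26 guidance genes (7.69%, beside 1.21% of all tested genes). Of 31 genes of synaptic adhesion 2 were lower (6.45%, beside 0.742% of all tested genes). FLRT2, a ligand of UNC5 receptors and latrophilins, was stable (-0.21, adjusted p = 0.00015). CNTN2, an adhesion molecule of growing axons, was lower (-0.14) but lost the call whichever miR-10a library was left out and with thinned counts (adjusted p = 0.051). GPC2, a glypican of the developing nervous system, was higher (0.14, adjusted p = 0.028) and kept its call only without doxycycline 2.

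**Figure D4:**
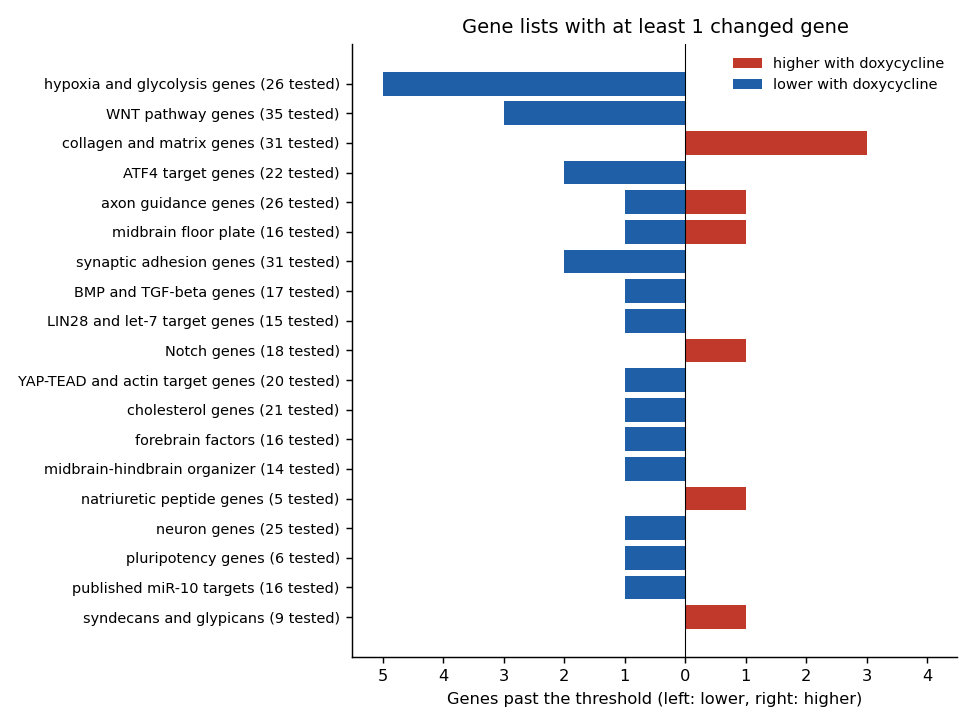
Number of genes past the threshold in each of the 19 gene lists with at least 1 such gene, lower with miR-10a to the left and higher to the right, with the number of tested genes of each list in parentheses. The hypoxia and glycolysis list has 5 lower genes, the WNT list 3 lower and the matrix list 3 higher, and the floor plate and axon guidance lists have 1 gene in each direction.

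The 41 lists together held 768 tested genes, of which 28 were called (7 higher and 21 lower), and 22 lists had none. Of all tested genes 1.21% were called (0.472% higher and 0.742% lower). Calls were more frequent at high level, as given above, and the part of level in the shares of the lists was not tested. Most of the 139 genes were therefore in no list. Some of the most abundant, per transcript length, were of other kinds. FGFBP3, which releases FGF from the matrix, was at 562.5, 571.8 and 544.7 CPM against 677.5, 663.2 and 670.0 (-0.26, standard error 0.031, adjusted p = 1.2e-06), and P4HB, a protein disulfide isomerase and subunit of collagen prolyl hydroxylase, at 597.0, 585.4 and 582.7 against 682.3, 665.8 and 660.7 (-0.19, adjusted p = 0.00027). Both were stable. KLHDC8B (0.19), a kelch-repeat protein, was higher and stable. H2AFX (0.12), the histone variant of DNA damage, and CTDSP2 (0.13), a phosphatase that represses neuronal genes and hosts a miRNA, were higher, but H2AFX lost the call whichever of the 6 libraries was left out and with TMM factors (adjusted p = 0.056), and CTDSP2 passed only without doxycycline 3. MTRNR2L1, MTRNR2L2 and MTRNR2L9 were higher by 0.17, 0.16 and 0.18. They are nuclear copies of mitochondrial 16S ribosomal RNA, whose reads they share, so that the source of their counts is uncertain; MTRNR2L2 lost the call without doxycycline 2 (0.13) or control 1 (0.15) and MTRNR2L9 without doxycycline 2 (0.15). MIR4461, a precursor of 74 bases, was lower (-0.16) and passed among the 6 fits only without control 1, and not with thinned counts (adjusted p = 0.056).

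Most changes were found with the miR-10b vector too, where 1756 genes passed (15.3%), with 8.18% of the tested genes higher and 7.15% lower. Of the 139 genes, 114 were called with both vectors in the same direction and 25 with miR-10a alone, but in 22 of these 25 the difference between the effects was not past the threshold. A test of that difference in the same fit called 224 of all tested genes (1.96%, with 0.576% in which miR-10b had the higher and 1.38% in which it had the lower change) and 30 of the 139, MIR10A included. Among them were 23 genes lower with miR-10a, and all 23 fell further with miR-10b. The induced precursors were not at the same level. In the doxycycline samples of its own vector MIR10B was at 2662, 2541 and 2653 CPM, and MIR10A at 731.2, 728.6 and 711.4. The part of this unequal level in the differences between vectors was not tested. ANKRD1 fell by 0.55 on the log2 scale with miR-10a and by 1.86 with miR-10b, where it was at 16.7, 19.9 and 19.4 CPM against 65.8, 64.4 and 72.6 (difference -1.31, standard error 0.116, adjusted p = 1.4e-09). For PRTG, by contrast, the changes were -0.56 and -0.54, with a difference of 0.02 (standard error 0.054, adjusted p = 0.92), and its level in the miR-10b controls was 4391, 4721 and 4905 CPM.

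HBEGF and SPATA13, the latter represented by a noncoding transcript (NR_104595), were called with miR-10a, not with miR-10b, and had a difference past the threshold. For HBEGF the difference was -0.63 (standard error 0.096, adjusted p = 7.8e-05), with a change of 0.15 with miR-10b. Its doxycycline samples were alike in both vectors, at 41.1 to 44.7 CPM with miR-10a and at 43.7, 42.2 and 43.5 with miR-10b. The controls were not, at 24.7, 24.8 and 24.5 against 43.0, 34.4 and 39.3. AGPAT4 rose with both vectors but further with miR-10a (difference -0.21, standard error 0.045, adjusted p = 0.0072), and here too the doxycycline samples were alike (493.6, 512.5 and 511.4 CPM with miR-10b) whereas the controls were higher with miR-10b, at 341.9, 353.5 and 337.5. NPPC, at 5.81, 5.83 and 5.99 CPM with miR-10b against 1.11, 1.26 and 1.58, did not differ past the threshold (difference -0.48, standard error 0.286, adjusted p = 0.52). The vectors were compared across cells transduced separately, and the vector and any difference between these cultures cannot be told apart.

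**Figure D5:**
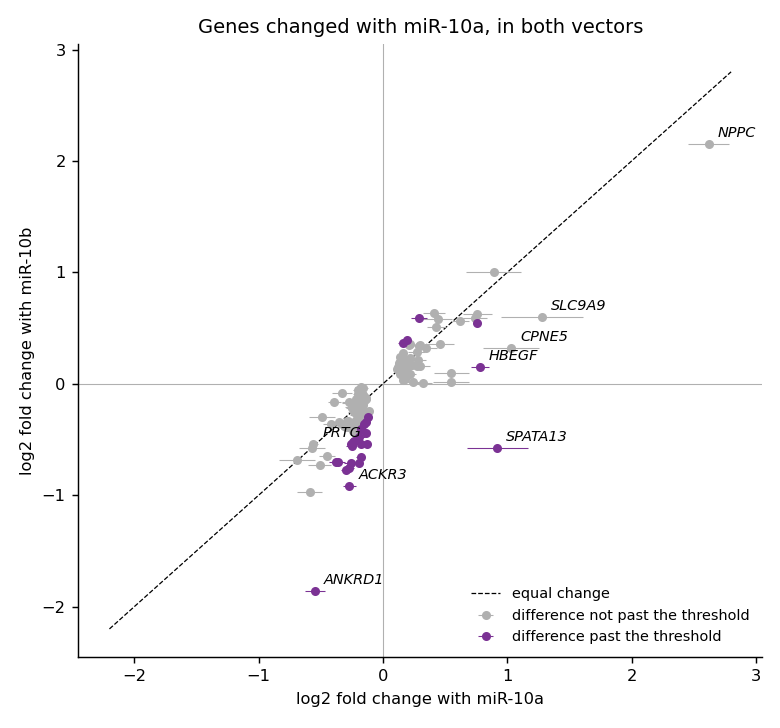
Log2 fold change with miR-10b against that with miR-10a for the genes called with miR-10a, MIR10A left out; horizontal bars give the standard error with miR-10a, purple marks genes whose difference passed the threshold, and the dashed line marks equal change. ANKRD1 (-0.55 and -1.86) lies far below the line, as do HBEGF (0.78 and 0.15) and SPATA13 (0.92 and -0.58), while PRTG (-0.56 and -0.54) lies on it.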

How the data were processed

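RNA-seq of poly-A RNA from 12 samples was used, in 4 groups of 3. The submitters' processing notes name STAR, Subread, featureCounts and hg19, with no versions, and the authors deposited raw read counts per RefSeq transcript, 1 file per sample. The strand setting is not given in the sources used here. Labels and methods name different kits for RNA and libraries. Each file held 51799 entries, of which 3698 repeated transcripts were dropped. The transcript with the highest mean count stood for its gene (25718 genes), and genes with 1 transcript held 92.84% of the counts, which appear to leave out reads shared between transcripts.

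Genes with a mean above 10 counts were tested in 1 fit of all 12 samples and 4 group means, with the total count as library size (glmQLFit and glmQLFTest of edgeR 4.0.16, R 4.3.3, 8 residual degrees of freedom, Benjamini-Hochberg threshold 0.05), after tests of the code on simulated counts. Symbols were matched to GENCODE 44 as written for 10226 tested genes and through transcript accessions for 868. Alternatives were TMM factors, DESeq2 1.42.0, other filters, the miR-10a samples alone, a replicate block, summed transcripts, thinned counts and leaving out libraries. Python 3.11.15 with pandas 2.3.3 and scipy 1.17.1 did the rest. The samples, gene lists and tests were chosen with earlier results of these data known. Most genes named with values are the 15 largest changes in each direction among called genes without overlap, called list members, the 10 called genes of highest level per length in each direction, called genes with an 8mer, genes the study names, and the 5 strongest differences between vectors. Outside this rule are values of cell type markers, of other pluripotency and neural crest genes, of RMST and of genes flagged for a difference between vectors.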

Additional observations from a re-analysis of the deposited data

Results flagged for a closer look

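The change with miR-10b differed from that with miR-10a, by a test of the difference in the same fit, in 30 of the 139 genes called with miR-10a, and the values in parentheses are log2 differences of the changes, miR-10b minus miR-10a. Among the lower genes the fall was further with miR-10b by at least 0.4 in ANKRD1 (-1.31), ACKR3 (-0.65), P4HB (-0.52), GALNT1 (-0.49), FCF1 (-0.48), MESDC2 (-0.48), SCARA3 (-0.45) and SLC7A1 (-0.41). It was further by less in SMARCD2 (-0.36), LGALSL (-0.34), BNIP3 (-0.32), HK2 (-0.32), LINC00261 (-0.3), TMEM97 (-0.3), GRM3 (-0.29), IER3IP1 (-0.29), ELOVL2 (-0.28), FGFBP3 (-0.28), LGI1 (-0.28), E2F7 (-0.23), WWC2 (-0.21), LIN28A (-0.19) and PGK1 (-0.18). Among the higher genes the rise was further with miR-10b in GPD1L (0.3), PDZRN3 (0.22) and KLHDC8B (0.2), and further with miR-10a in AGPAT4 (-0.21) and HBEGF (-0.63). SPATA13, at low level and with 7 transcripts, rose with miR-10a and did not pass with miR-10b, with a difference of -1.49. The difference was -9.36 for MIR10A and 10.14 for MIR10B, each induced by its own vector. SLFN13, not called with miR-10a (-0.16, adjusted p = 0.85 from edgeR's test), rose with miR-10b (2.32), and its difference of 2.48 had one of the 5 smallest adjusted p.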

How the results depend on the processing

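The number of genes called with miR-10a (139, with 54 higher and 85 lower) was within 1.5 times of its value with TMM factors, DESeq2, filterByExpr, a mean above 50 counts, summed transcripts and thinned counts. It was 272 (127 higher, 145 lower) with the miR-10a samples alone and 268 (126 and 142) without replicate 2 of the miR-10b doxycycline group, both of which remove samples from the shared spread. With no filter on low counts, 82 genes were higher and 343 differed between vectors. Leaving out 1 miR-10a library at a time gave 75 to 104 called genes, 21 to 38 higher and 54 to 66 lower, and 140 to 201 that differ between vectors (232 without replicate 2 of the miR-10b doxycycline group). The 12 lower genes with an 8mer became 36 when 7mer-m8 matches were counted as well. MIR10A stayed between 9.27 and 9.76. FOXA2, which was not called, had values between -0.02 and 0.09, negative without doxycycline 2 (-0.02), doxycycline 3 (-0.01), control 1 (-0.02) and control 3 (-0.0). The replicate numbers did not pair the samples (r of deviations of same-numbered samples 0.003, 0.008 and -0.007), and with the number as a block 116 genes were called (43 higher, 73 lower) and 218 differed between vectors. Genes of low level limit the rest: among the 2863 tested genes with the lowest CPM no change under 0.89 on the log2 scale was called.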
